A study of Homo sapiens with 4 samples.

Results

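The CIP/KIP and INK4 inhibitors of cyclin-dependent kinases (CDKs) were followed at the transcript level in PC3 prostate cancer cells treated with MLN4924, with and without depletion of p14ARF. The CIP/KIP family was CDKN1A, CDKN1B and CDKN1C, and the INK4 family was CDKN2A, CDKN2B, CDKN2C and CDKN2D. These 7 genes were taken by name from an expression table of 43622 genes, and all 7 were among the 19932 genes that had a mean of at least 0.1 TPM and were tested. TPM is a read count divided by transcript length and scaled so that each library sums to 1000000, so levels of different genes can be set side by side.

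RNA-seq was done on PC3, an established human prostatic adenocarcinoma line, under 4 conditions with 3 libraries each. Ctrl was PC3 labelled wild type with DMSO, MLN was the same cells with 1 µM MLN4924, shARF was PC3 carrying an shRNA against p14ARF with DMSO, and Both was the shRNA cells with 1 µM MLN4924. Treatment lasted 3 days, and the series aimed to find which genes of the MLN4924 response depend on p14ARF. MLN4924 blocks the conjugation of the ubiquitin-like protein NEDD8, which cullin-RING ubiquitin ligases need for their activity. The shRNA was delivered by retrovirus into a stable, hygromycin-selected population, no control shRNA is named for the Ctrl and MLN cells, and the series text calls the same cells a knockout. The design text gives the drug concentration in millimolar units, while the treatment protocol and the paper's methods give micromolar. GEO lists 1 sample per condition, and the expression table holds 3 columns for each, read here as 3 libraries, with M4 in a column name read as MLN4924. Nothing says that the 3 libraries of a condition were separate cultures, so p-values measure only the spread between these libraries, which may be technical. The read depth of the libraries is unknown, since TPM does not hold it. Fold changes below are differences of log2(TPM + 0.1), which understate changes of low genes, and adjusted p-values are from limma and adjusted by Benjamini-Hochberg over the whole set of 19932 genes.

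Progression through the cell cycle is driven by cyclins bound to CDKs. INK4 proteins (p16INK4a, p15, p18 and p19) bind CDK4 and CDK6 and keep D-type cyclins away from them, while CIP/KIP proteins (p21, p27 and p57) bind cyclin-CDK complexes and above all inhibit CDK2. p21, p27 and p57 are themselves degraded after ubiquitylation by cullin-RING ligases. Their protein levels are thus set after transcription as well as by it, and the RNA-seq measured only transcripts. By western blot, after a shorter treatment, the paper reported p21 protein induced by MLN4924 and partially reduced when p14ARF was depleted. It also reported a rise of p14ARF protein with the drug. CDKN2A encodes 2 unrelated proteins from different first exons: p16INK4a, and p14ARF, which binds MDM2 and is no CDK inhibitor.

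The libraries carried epithelial markers in every condition, with all 5 tested (KRT8, KRT18, KRT19, EPCAM and CDH1) above 1 TPM. Their summed level moved with the conditions, from 907 to 1004 TPM over the Ctrl libraries and 1138 to 1280.0 in shARF, against 439 to 504 in MLN and 433 to 449.9 in Both. KRT19 lay between 536 and 589 TPM in Ctrl and between 168 and 208 in MLN, and EPCAM between 73.5 and 79.7 in shARF and between 18.3 and 21.5 in Both, while KRT8 was between 77.7 and 154 over all libraries. Androgen receptor was at most 0.0234 TPM and KLK3 was listed at 0. Of the markers of other cell types, PTPRC was at most 0.322 TPM, CD3E at most 0.0558, VWF at most 0.0301, CDH5 at most 0.327 and DCN at most 0.126. Single genes of those lists also moved with the conditions. The macrophage marker CD68 lay between 161 and 230.3 TPM in Ctrl, 73.7 and 94.8 in shARF, 437 and 607 in MLN, and 304 and 344 in Both, and the endothelial marker PECAM1 was at least 10.9 TPM in Ctrl and at most 1.94 in shARF, 0.678 in MLN and 0.212 in Both. COL1A1 lay between 3.56 and 19.7 TPM and COL3A1 between 0.401 and 5.92. The part of these markers in the results below was not tested, and in bulk RNA a change in the cells present and a change in RNA per cell cannot be told apart.

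CDKN2A, the target of the shRNA, spans 21967752 to 21995301 on the minus strand of chromosome 9 (GRCh38, GENCODE). Its p14ARF transcript CDKN2A-214 has 1052 exonic bases and its p16INK4a transcript CDKN2A-201 has 978, of which 798 are shared and only 254 and 180, respectively, belong to 1 of the 2 alone. The first exons lie 19282 bases apart, and CDKN2B starts 7602 bases beyond CDKN2A on the chromosome. The deposited values are per gene, so a CDKN2A value below is the sum over both products and says nothing of either. The 250 bases before each RefSeq start (GRCh38.p14, minus strand, 5′ to 3′) are shown because CDKN2A is the targeted gene. Capitals mark GC boxes (GGGCGG on either strand), a binding sequence of SP1 that 42.6% of 35116 RefSeq promoters held in this window. The upper sequence, chr9:21995325-21995574, belongs to a RefSeq start that lies 932 bases upstream of the start of CDKN2A-214, so it is not the window next to that transcript. The lower one, chr9:21974858-21975107, ends at the start of CDKN2A-201, the p16INK4a transcript, and lies in the first intron of CDKN2A-214. The upstream start held no GC box and the p16INK4a start held 1.
CDKN2A upstream start: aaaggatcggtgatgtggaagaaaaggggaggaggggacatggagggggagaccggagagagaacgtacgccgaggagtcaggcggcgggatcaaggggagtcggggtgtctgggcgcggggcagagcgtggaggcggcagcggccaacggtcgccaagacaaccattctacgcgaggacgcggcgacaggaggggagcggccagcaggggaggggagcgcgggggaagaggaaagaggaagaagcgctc
CDKN2A p16INK4a start: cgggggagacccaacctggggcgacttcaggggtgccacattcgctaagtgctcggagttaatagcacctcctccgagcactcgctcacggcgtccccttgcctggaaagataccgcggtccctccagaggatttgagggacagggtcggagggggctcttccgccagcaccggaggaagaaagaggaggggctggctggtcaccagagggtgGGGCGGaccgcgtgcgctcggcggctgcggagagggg

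The CDKN2A transcript was at 190.1, 183 and 177 TPM in the Ctrl libraries and 58.2, 58.7 and 60.9 in the shARF libraries. No library of one group reached the other, and the level was lower in shARF (log2 fold change −1.63, SE 0.035, adjusted p = 2.24e-05). With MLN4924 the libraries were at 100.4, 133 and 119 TPM in PC3 cells and 47.2, 41.2 and 54.0 TPM in the shRNA cells, again without overlap (Both vs MLN, log2 fold change −1.31, SE 0.14, adjusted p = 0.00188). CDKN2A was thus lower in the shRNA cells under each treatment, and a remainder of about 58 to 61 TPM without the drug cannot be assigned to p14ARF or p16INK4a.

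The order of the 7 inhibitors by TPM differed between the conditions. CDKN2A was the most abundant in Ctrl (183 ± 6.49 TPM, SD, n = 3), followed by CDKN2B (141 ± 6.79) and CDKN1A (113 ± 9.41). In MLN, CDKN1A led with 344 ± 47.6 TPM, ahead of CDKN2A with 118 ± 16.4 and CDKN2D with 88.0 ± 7.90. In shARF, CDKN2B led with 116 ± 3.65 TPM and CDKN1A was the last but one with 12.2 ± 0.824, above CDKN1C alone. In Both, CDKN1A led again with 202 ± 18.3 TPM, and the next was CDKN2B with 56.9 ± 3.83. CDKN1C, the gene of p57, was the lowest in every condition, with means between 0.250 and 1.04 TPM.

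**Figure D1:**
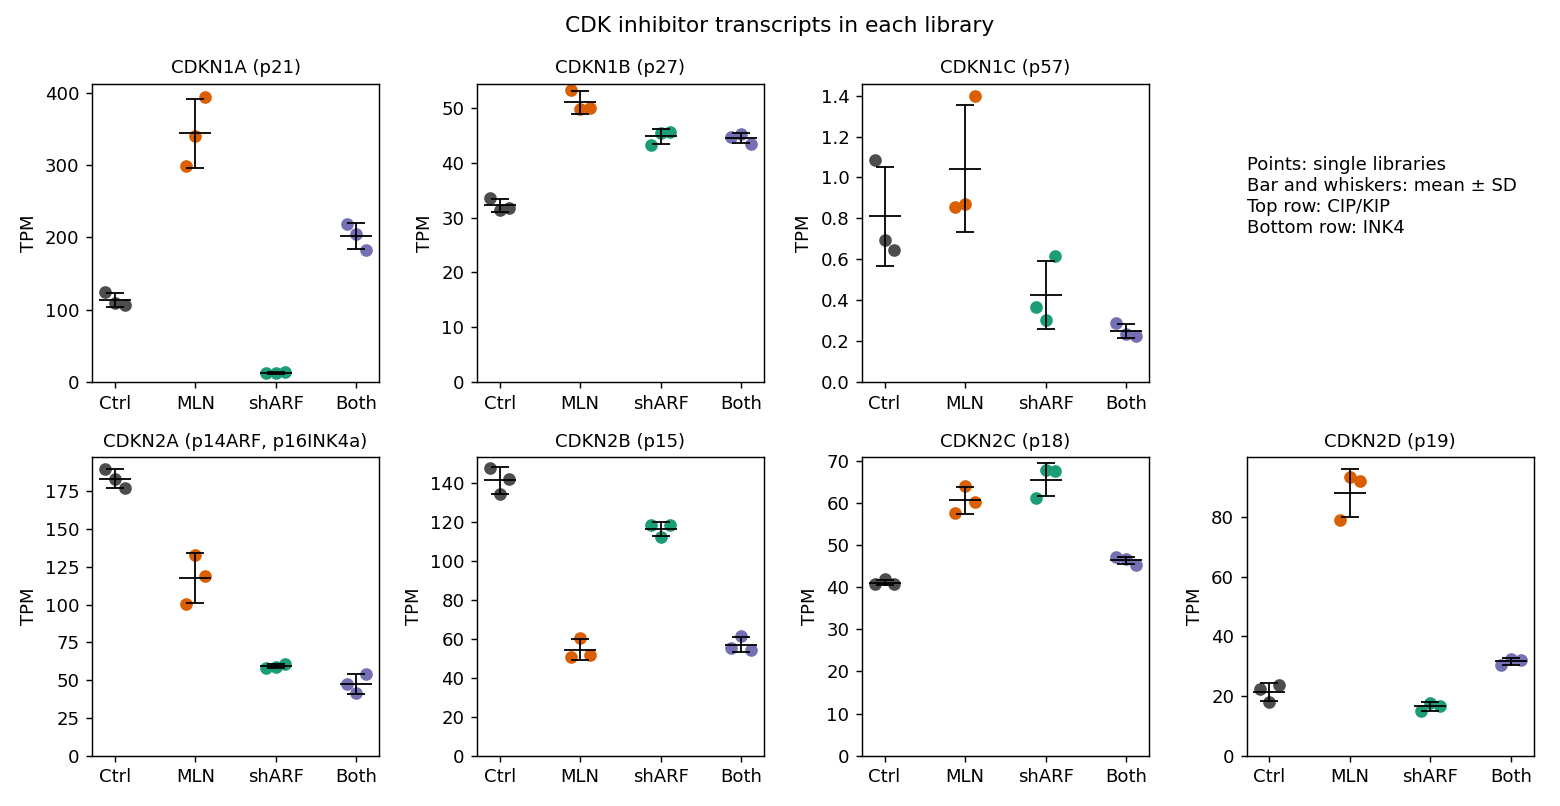
TPM of each CDK inhibitor gene (y axis, each panel with its own scale from 0) in the 3 libraries of each condition (x axis); points are libraries, long bars means and whiskers SD. CDKN1A went from 12.2 TPM in shARF to 344 in MLN, while CDKN1B and CDKN2C stayed within a ratio of 1.60 between their highest and lowest condition.

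Of the CIP/KIP genes, CDKN1A encodes p21, which stops the cell cycle on stress signals and also binds PCNA. The gene spans 36676460 to 36687337 on the plus strand of chromosome 6. The 250 bases before its RefSeq start, chr6:36678464-36678713, are shown because CDKN1A had the widest range of all members, and the capitals again mark GC boxes. It held 4 of them, a pair of them overlapping, and 7.63% of the RefSeq promoters held 4 or more in this window.
CDKN1A start: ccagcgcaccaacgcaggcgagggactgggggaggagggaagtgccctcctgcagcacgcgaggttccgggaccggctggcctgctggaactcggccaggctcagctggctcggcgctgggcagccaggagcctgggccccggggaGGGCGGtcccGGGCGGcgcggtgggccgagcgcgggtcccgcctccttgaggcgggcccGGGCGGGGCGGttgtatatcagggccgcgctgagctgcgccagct

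CDKN1A stood at 124, 109.7 and 106 TPM in the Ctrl libraries and at 299, 340.1 and 394 TPM in the MLN libraries. Every MLN library was above every Ctrl library, and the gene rose 3.02-fold (log2 fold change 1.60, SE 0.12, adjusted p = 8.13e-05). In shARF it was at 11.8, 11.7 and 13.2 TPM, far below Ctrl, and it fell by 89.1% (log2 fold change −3.20, SE 0.079, adjusted p = 3.48e-05). In Both it was at 219, 205 and 183 TPM, a 16.4-fold rise over shARF (log2 fold change 4.04, SE 0.083, adjusted p = 1.50e-06). The level in Both was still below MLN (log2 fold change −0.76, SE 0.12, adjusted p = 0.00645) and above Ctrl (log2 fold change 0.84, SE 0.090, adjusted p = 0.000387). The 4 conditions were therefore ordered MLN, Both, Ctrl and shARF with no overlap between neighbours. The condition means spanned 4.80 on the log2 scale, wider than in 98.2% of the genes tested. The response to MLN4924 was larger in the shRNA cells than in PC3 by 2.44 on the log2 scale (interaction, SE 0.14, adjusted p = 4.25e-07). In TPM the rise of the mean was not larger there, from 12.2 to 202 against 113 to 344 in PC3 cells.

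CDKN1B encodes p27, the inhibitor of CDK2 that is high in resting cells, and spans 12685498 to 12722369 on the plus strand of chromosome 12. Its libraries were at 33.6, 31.4 and 31.8 TPM in Ctrl and 53.3, 49.7 and 49.9 TPM in MLN, a 1.58-fold rise without overlap (log2 fold change 0.66, SE 0.051, adjusted p = 0.000106). In shARF they were at 43.3, 45.5 and 45.6 TPM, above Ctrl (log2 fold change 0.47, SE 0.039, adjusted p = 0.00074). Where CDKN1A was lowest, in shARF, CDKN1B was thus above its Ctrl level.

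In Both CDKN1B was at 44.7, 45.3 and 43.5 TPM, overlapping shARF. The log2 fold change between Both and shARF was −0.0088 (SE 0.038, 95% confidence interval −0.10 to 0.086, adjusted p = 0.863). That interval covers only the spread between libraries. With median-of-ratios scaling the value was 0.087 (adjusted p = 0.0781). The response to MLN4924 differed between the cell populations (interaction −0.67, SE 0.072, adjusted p = 4.33e-05). Both was below MLN (log2 fold change −0.20, SE 0.048, adjusted p = 0.0274), a call that did not hold without MLN library 2 (adjusted p = 0.0597) or 5 (0.0512) or Both library 2 (0.0798), 3 (0.0513) or 4 (0.0656), nor with median-of-ratios scaling (0.161). Relative to Ctrl, Both was higher by 0.46 (SE 0.047, adjusted p = 0.00029). GPR19 lies on the opposite strand over 10710 bases of CDKN1B, at condition means of 2.57 to 3.83 TPM.

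CDKN1C, the imprinted gene of p57, lies at 2883213 to 2885775 on the minus strand of chromosome 11. The libraries were at 1.09, 0.694 and 0.646 TPM in Ctrl, 0.365, 0.300 and 0.614 in shARF, 0.856, 0.872 and 1.40 in MLN, and 0.290, 0.235 and 0.226 in Both. Ctrl and MLN overlapped, and the Both libraries were below all others. Only the comparisons of Both with MLN (log2 fold change −1.68, SE 0.25, adjusted p = 0.00511) and with Ctrl (−1.35, SE 0.25, adjusted p = 0.00396) passed the test among the 5 pairs. Neither MLN vs Ctrl (0.33, SE 0.28, adjusted p = 0.357) nor Both vs shARF (−0.55, SE 0.27, adjusted p = 0.132) did. For shARF vs Ctrl the value was −0.80 (SE 0.31, adjusted p = 0.0933), and without shARF library 5 it was −1.04 with an adjusted p of 0.04998. At this level the fold changes depend on the pseudocount, Both vs MLN being −0.70 with 1 TPM and −1.99 with 0.01, and Both vs Ctrl −0.53 and −1.62, all still past the threshold, and the SD of the 3 libraries reached 38.8% of the mean.

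The INK4 genes followed other patterns. After MLN4924 CDKN2A fell by 36.3% in PC3 cells (log2 fold change −0.65, SE 0.11, adjusted p = 0.00235). Both was also below shARF (log2 fold change −0.33, SE 0.099, adjusted p = 0.0296), and the libraries did not overlap, but this call was lost without shARF library 1 (adjusted p = 0.0748), 3 (0.0774) or 5 (0.0925) or Both library 2 (0.0823), and with median-of-ratios scaling (0.128). The difference between the responses was 0.32 (SE 0.15, adjusted p = 0.126), with an adjusted p of 0.046 without Both library 3. Both against Ctrl gave the widest difference of the gene, −1.96 (SE 0.10, adjusted p = 2.21e-05). CDKN2A was the only INK4 gene with its 4 conditions ordered Ctrl, MLN, shARF and Both, with no overlap between neighbours.

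CDKN2B encodes p15, the INK4 inhibitor known as a target of TGF-beta signalling, and spans 22002903 to 22009305 on the minus strand of chromosome 9. The 250 bases before its start, chr9:22009306-22009555, are shown because this gene next to CDKN2A fell with the drug to nearly the same level in both cell populations. It held 2 GC boxes, 1 on each strand.
CDKN2B start: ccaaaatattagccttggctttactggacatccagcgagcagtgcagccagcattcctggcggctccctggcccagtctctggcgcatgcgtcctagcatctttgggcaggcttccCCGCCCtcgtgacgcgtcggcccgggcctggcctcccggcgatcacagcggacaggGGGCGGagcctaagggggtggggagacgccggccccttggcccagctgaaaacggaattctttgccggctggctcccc

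CDKN2B was at 148, 134 and 142 TPM in Ctrl and at 50.8, 60.4 and 51.7 TPM in MLN. It fell by 61.6% (log2 fold change −1.38, SE 0.080, adjusted p = 3.76e-05). In the shRNA cells it was at 118, 112 and 118 TPM with DMSO and at 55.2, 61.3 and 54.2 TPM with MLN4924, a fall by 51.0% (log2 fold change −1.03, SE 0.058, adjusted p = 3.17e-05). Depletion of p14ARF alone went with a smaller difference, with shARF below Ctrl (log2 fold change −0.28, SE 0.045, adjusted p = 0.00638). Under the drug the libraries of Both and MLN overlapped, with a difference of 0.070 (SE 0.087, 95% confidence interval −0.14 to 0.28, adjusted p = 0.58), while Both was below Ctrl (−1.31, SE 0.065, adjusted p = 1.97e-05).

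The shRNA therefore went with log2 differences of −1.63 in CDKN2A and −0.28 in CDKN2B, 7602 bases away. The interaction of CDKN2B was 0.35 (SE 0.10, adjusted p = 0.0245), a smaller fall in the shRNA cells. It was lost without Ctrl library 1 (adjusted p = 0.0551) or 3 (0.0512), MLN library 5 (0.0576), shARF library 3 (0.0585) or Both library 3 (0.0556). CDKN2B-AS1 (ANRIL) is transcribed from the opposite strand over all 6403 bases of CDKN2B and 1163 of CDKN2A. Its means were 3.13 ± 0.0507 TPM in Ctrl and 2.11 ± 0.560 in shARF, and 4.09 ± 0.0852 in MLN and 4.65 ± 1.24 in Both. It moved with the drug in the direction opposite to CDKN2B (log2 fold change 0.38, adjusted p = 0.0102 in PC3; 1.11, adjusted p = 0.0141 in the shRNA cells). Whether the reads were counted by strand is not stated, so sense and antisense reads cannot be told apart where the genes overlap.

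CDKN2C encodes p18 and spans 50960745 to 50974634 on the plus strand of chromosome 1. It was at 40.7, 41.8 and 40.6 TPM in Ctrl and at 57.5, 64.0 and 60.3 TPM in MLN, a 1.47-fold rise (log2 fold change 0.56, SE 0.051, adjusted p = 0.000211). The shARF libraries, at 61.0, 67.8 and 67.5 TPM, were also above Ctrl, by 0.67 (SE 0.048, adjusted p = 0.000508), and they overlapped MLN. In Both the gene was at 47.1, 46.6 and 45.3 TPM, below shARF (log2 fold change −0.50, SE 0.052, adjusted p = 0.000373) and below MLN (−0.39, SE 0.054, adjusted p = 0.0043), and slightly above Ctrl (0.17, SE 0.040, adjusted p = 0.0098). MLN4924 thus raised CDKN2C in PC3 cells and lowered it in the shRNA cells, each without overlap, and the difference was −1.06 (SE 0.080, adjusted p = 3.03e-06). It was the only 1 of the 7 genes that passed the test in opposite directions in the 2 populations.

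CDKN2D encodes p19, the INK4 protein known to oscillate with the cell cycle, and spans 10566460 to 10569059 on the minus strand of chromosome 19. The 250 bases before its RefSeq start, chr19:10568980-10569229, are shown because this gene had the largest response to MLN4924 in PC3 cells. Capitals mark 2 GC boxes and, nearest the 5′ end, the letters TTTNNCGC, an E2F-like sequence on either strand that 5.92% of RefSeq promoters and 1 of the 9 starts matched to the members held. None of these 9 starts held TATAAA, present in 10.7% of promoters, or the AP-1-like TGANTCA, present in 6.57%, and 7 of the 9 held a GC box. A match of letters is a description and says nothing of binding.
CDKN2D start: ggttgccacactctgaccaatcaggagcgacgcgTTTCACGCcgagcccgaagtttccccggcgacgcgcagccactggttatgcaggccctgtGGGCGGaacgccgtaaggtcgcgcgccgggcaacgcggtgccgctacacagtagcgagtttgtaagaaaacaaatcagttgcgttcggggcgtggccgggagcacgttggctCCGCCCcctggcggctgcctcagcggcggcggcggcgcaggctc

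CDKN2D was at 22.4, 18.01 and 23.8 TPM in Ctrl and at 78.9, 93.2 and 91.9 TPM in MLN. It rose 4.12-fold, more than any other member in PC3 (log2 fold change 2.04, SE 0.12, adjusted p = 4.17e-05). Between the shRNA conditions it went from 14.98, 17.8 and 16.8 TPM in shARF to 30.3, 32.5 and 32.1 TPM in Both, a 1.91-fold rise (log2 fold change 0.94, SE 0.074, adjusted p = 0.000114). The response was smaller in the shRNA cells (interaction −1.11, SE 0.15, adjusted p = 0.000193), and Both was below MLN without overlap (log2 fold change −1.47, SE 0.078, adjusted p = 0.000365). Without the drug, shARF against Ctrl gave −0.36 (SE 0.13, adjusted p = 0.072), although no libraries overlapped, and without Ctrl library 2 the value was −0.48 with an adjusted p of 0.0208. It also passed with a filter at a mean of 1 TPM (adjusted p = 0.0359) and with 12 libraries in one fit (0.0139). Both was above Ctrl by 0.57 (SE 0.11, adjusted p = 0.00454).

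Counted over the families, MLN4924 in PC3 cells changed 6 of the 7 genes, 4 higher (CDKN1A, CDKN1B, CDKN2C and CDKN2D) and 2 lower (CDKN2A and CDKN2B). The background in that comparison was high, with 61.6% of all genes called, 32.2% higher and 29.4% lower. The median log2 fold change of the members was 0.56 and that of all genes 0.052. The libraries of the groups did not overlap in 6 of the 7 genes, as in 67% of all genes. In PC3-shp14ARF cells 5 of 7 passed, CDKN1A and CDKN2D higher and CDKN2A, CDKN2B and CDKN2C lower, where 61% of all genes did, 28.3% higher and 32.8% lower. The medians there were −0.33 for the members and −0.038 for all genes, and 6 of 7 did not overlap, as in 67.1% of all genes.

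Depletion of p14ARF without the drug went with 5 calls, CDKN1B and CDKN2C higher and CDKN1A, CDKN2A and CDKN2B lower, against 41.4% of all genes (21% higher, 20.4% lower), with medians of −0.36 and 0. None of the 7 overlapped, where 53.1% of all genes did not. Under the drug, Both vs MLN, 6 of 7 genes were lower and none was higher, CDKN2B being the exception to a call, where 32.4% of all genes were called, 11.8% higher and 20.6% lower. The medians were −0.76 and −0.080, and 6 of 7 did not overlap, against 47.7% of all genes. With median-of-ratios scaling the calls over all genes in Both vs MLN were 3655 higher and 3474 lower, in place of 2352 and 4112, and those of the interaction 3208 positive and 2798 negative, in place of 2229 and 3416. All 7 members differed between Both and Ctrl, 4 higher and 3 lower, where 61.7% of all genes did, 28.5% higher and 33.2% lower, and the medians were 0.17 and −0.038. No member overlapped there, and 67.3% of all genes did not. These comparisons share libraries, so their counts are not independent. The interaction was called for 5 of 7 members, CDKN1A and CDKN2B positive and CDKN1B, CDKN2C and CDKN2D negative, against 28.3% of all genes, 11.2% positive and 17.1% negative, with medians of −0.67 and −0.085.

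**Figure D2:**
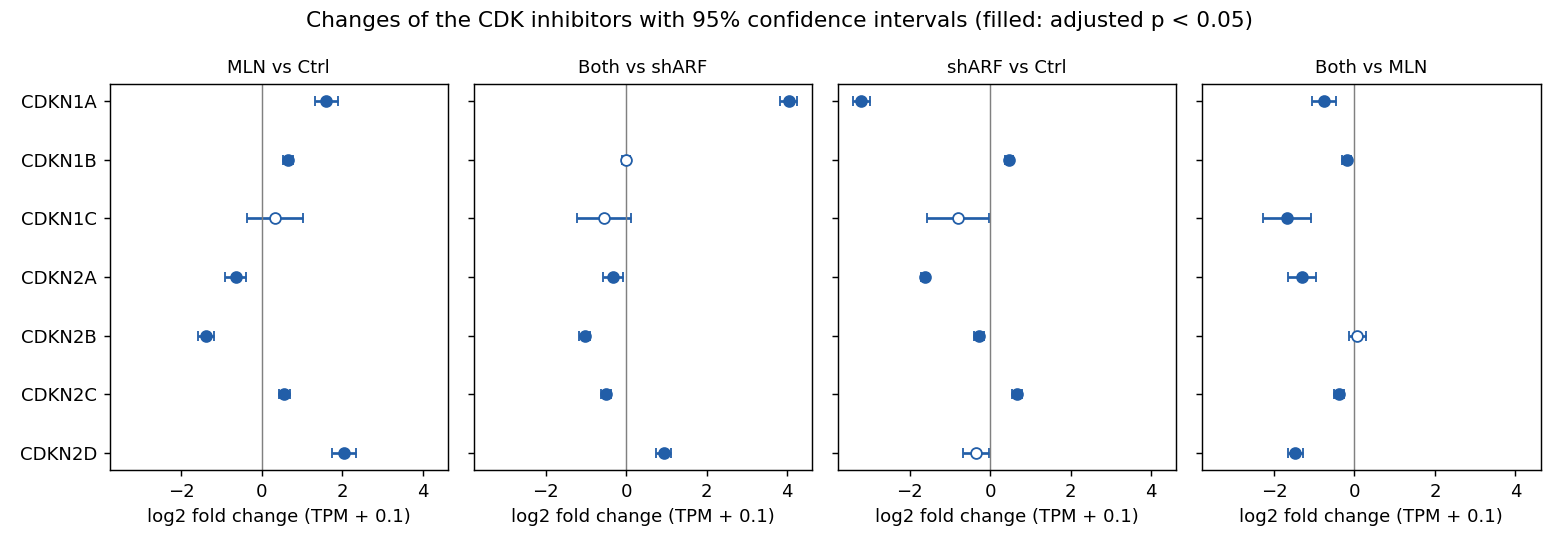
Log2 fold changes of TPM + 0.1 (x axis) of the 7 genes (y axis) in 4 comparisons; points are estimates, bars 95% confidence intervals, filled where the adjusted p was below 0.05. In Both vs MLN all values but that of CDKN2B lie below 0, and CDKN1A ranges from −3.20 in shARF vs Ctrl to 4.04 in Both vs shARF.

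**Figure D3:**
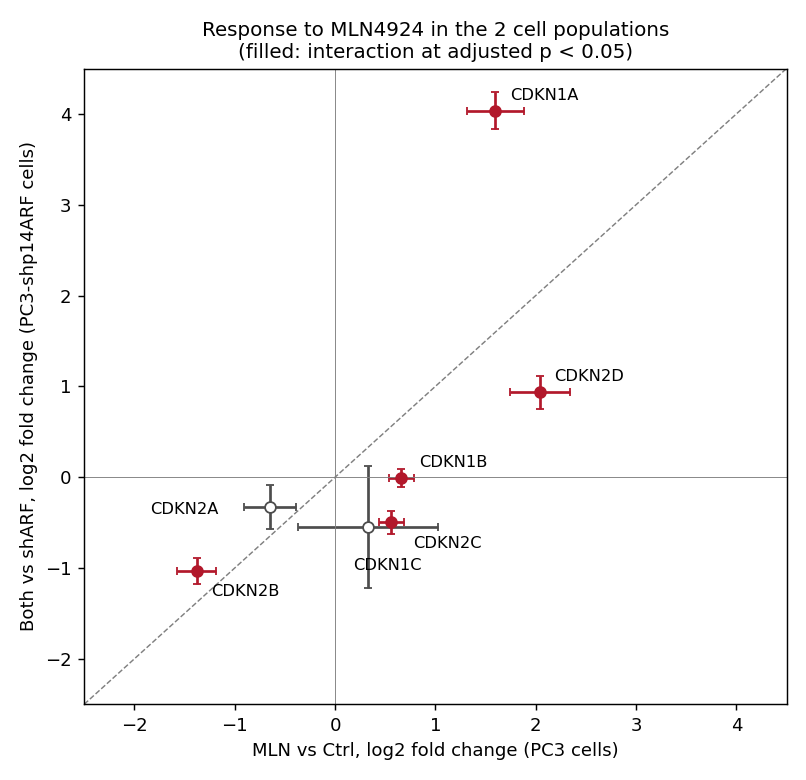
Log2 fold change with MLN4924 in PC3 cells (x axis) and in PC3-shp14ARF cells (y axis), with 95% confidence intervals; the dashed line marks equal responses and filled points an interaction with an adjusted p below 0.05. CDKN1A lies above the line by 2.44, CDKN2C and CDKN2D lie below it by more than 1, and CDKN2A and CDKN1C did not pass the test.

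Summed over its members, the CIP/KIP family stood at 146 ± 10.8 TPM (SD, n = 3) in Ctrl and 57.4 ± 1.96 in shARF, against 396 ± 46.3 in MLN and 247 ± 19.04 in Both. The INK4 sum was 387 ± 12.3 TPM in Ctrl and 257 ± 5.74 in shARF, against 320.5 ± 31.6 in MLN and 182 ± 3.004 in Both. The INK4 sum was therefore 2.65 times the CIP/KIP sum in Ctrl and 4.48 times in shARF, but 0.813 times in MLN and 0.742 times in Both. The ratios in the libraries with MLN4924 lay between 0.681 and 0.898 and those without it between 2.53 and 4.55. The INK4 sum holds all reads of CDKN2A, the target of the shRNA, and so includes p14ARF, which is no CDK inhibitor. CDKN2A was at 183 TPM in Ctrl and 59.3 in shARF. The sum and the ratio are therefore not levels of INK4 inhibitors alone. The sums and shares are descriptions without a test.

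The make-up of each sum changed as well. CDKN1A gave 77.4% ± 0.773 of the CIP/KIP sum in Ctrl, 86.7% ± 1.93 in MLN and 81.8% ± 1.12 in Both, but 21.3% ± 0.931 in shARF, where CDKN1B gave 78.0% ± 1.19. Of the INK4 sum, CDKN2A gave 47.4% ± 1.18 in Ctrl, 23.03% ± 0.114 in shARF, 36.6% ± 1.56 in MLN and 26.02% ± 3.21 in Both. The share of CDKN2D was 5.52% ± 0.71 in Ctrl and 6.42% ± 0.505 in shARF, and with MLN4924 it was 27.5% ± 0.94 and 17.3% ± 0.536. CDKN2B held its largest share in shARF, 45.1% ± 1.58, and its smallest in MLN, 17.0% ± 0.86. CDKN2C, which gave 10.6% ± 0.462 in Ctrl, gave 25.4% in both shARF and Both.

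The partners of the inhibitors were taken from a list of 13 cyclins and CDKs. With MLN4924 in PC3 cells 7 were higher and 3 lower (median 0.66), where 32.2% of all genes were higher and 29.4% lower (median 0.052). The largest changes were those of CCNE2 (3.12, adjusted p = 4.89e-06) and CCNE1 (1.59, adjusted p = 0.00032), the E-type cyclins of CDK2, CDK2 itself (1.86, adjusted p = 1.60e-05) and CCND1, the D-type cyclin that INK4 proteins oppose (−2.92, adjusted p = 2.78e-06). Both vs shARF had 7 higher and 5 lower (median 0.37; all genes 28.3% and 32.8%, median −0.038), with CCND1 again lower (−2.98, adjusted p = 6.68e-07) and CCNA1, a cyclin best known from the testis, higher (2.81, adjusted p = 1.74e-06). In shARF vs Ctrl 7 were higher and 3 lower (median 0.42; all genes 21% and 20.4%, median 0), CCNA1 among the lower (−2.43, adjusted p = 2.92e-05). In Both vs MLN 2 were higher and 4 lower (median −0.015; all genes 11.8% and 20.6%, median −0.080), and in Both vs Ctrl 10 were higher and 3 lower (median 0.48; all genes 28.5% and 33.2%, median −0.038). The interaction was positive in 2 and negative in 6 (median −0.26; all genes 11.2% and 17.1%, median −0.085).

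CDK4, a direct partner of the INK4 proteins, was at 229.7 ± 7.63 TPM in Ctrl and 349 ± 17.7 in shARF, against 220.4 ± 22.6 in MLN and 294 ± 11.5 in Both. CDK6, the other partner, was at 26.8 ± 2.11 TPM in Ctrl and 17.03 ± 0.468 in shARF (−0.65, adjusted p = 0.00133), against 15.1 ± 0.267 in MLN and 14.8 ± 1.12 in Both, with an interaction of 0.61 (adjusted p = 0.000988). CDK2 was at 64.2 ± 2.08 TPM in Ctrl and 133 ± 3.01 in shARF, against 235 ± 25.7 in MLN and 299 ± 24.1 in Both. CCND1 stood at 308 ± 26.9 TPM in Ctrl and 40.4 ± 0.336 in MLN, and at 317 ± 14.4 in shARF and 40.01 ± 0.491 in Both. Cyclin and CDK transcripts were thus not of 1 direction in any of the pairs.

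A list of 13 parts of the ubiquitin ligases that act on p21, p27 or p57 was set beside the members. Some of these ligases, but not all, include cullins, whose NEDD8 conjugation MLN4924 blocks, and the counts are over all 13. In PC3 cells 4 were higher with the drug and 8 lower (median −0.35), against 32.2% and 29.4% of all genes (median 0.052). The substrate receptor DTL (1.89, adjusted p = 2.23e-05), PCNA (1.67, adjusted p = 1.60e-05), on which p21 is recognised, and CKS1B (1.22, adjusted p = 2.09e-05), the cofactor for p27, were higher, and CDC20, an activator of the anaphase-promoting complex, was lower (−1.02, adjusted p = 0.000162). SKP2, the F-box receptor of p27, was at 40.9 TPM in Ctrl and 32.2 in MLN (−0.34, adjusted p = 0.00321). Both vs shARF had 3 higher and 9 lower (median −0.51; all genes 28.3% and 32.8%), CDC20 by −2.15 (adjusted p = 1.96e-06). In shARF vs Ctrl 9 were higher and 0 lower (median 0.28), against 21% and 20.4% of all genes (median 0). Only CDC20 changed in Both vs MLN (−0.77, adjusted p = 0.00255; list median −0.0063; all genes 11.8% higher and 20.6% lower), and Both vs Ctrl had 3 higher and 8 lower (median −0.45; all genes 28.5% and 33.2%). The interaction was negative in 7 and positive in 0 (median −0.28; all genes 17.1% and 11.2%).

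Of 24 transcription regulators reported for these genes, 23 were tested, since TP73 was at or near 0. With MLN4924 in PC3 cells 7 were higher and 9 lower (median −0.047; all genes 32.2% and 29.4%, median 0.052). MYC, a repressor of CDKN1A and CDKN2B, was lower in PC3 cells (−2.27, adjusted p = 8.72e-06) and in the shRNA cells (−2.17, adjusted p = 2.18e-06), where it went from 1183 to 264 TPM. E2F1, the S-phase activator, was higher in PC3 cells (2.25, adjusted p = 2.14e-05), and ID1, a repressor of CDKN2A, was lower (−1.45, adjusted p = 6.01e-05). SMAD3, which carries the TGF-beta signal to CDKN2B, was lower too (−1.28, adjusted p = 2.64e-05). Both vs shARF had 10 higher and 9 lower (median 0.23; all genes 28.3% and 32.8%), with FOXO1 (1.26), ETS1 (1.15) and ETS2 (1.08) among the higher.

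In shARF vs Ctrl 5 of the regulators were higher and 10 lower (median −0.29; all genes 21% and 20.4%, median 0), ID1 (−1.78), ETS1 (−1.45) and ETS2 (−1.09) among the lower and E2F1 among the higher (1.21). In Both vs MLN 3 were higher and 7 lower (median −0.083; all genes 11.8% and 20.6%), and in Both vs Ctrl 6 were higher and 11 lower (median −0.19; all genes 28.5% and 33.2%). The interaction was positive in 3 and negative in 4 (median 0.17; all genes 11.2% and 17.1%).

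A list of 14 proliferation genes that fall when CDKs are inhibited was read beside the inhibitors. All 14 were higher in shARF vs Ctrl (median 0.78), where 21% of all genes were higher and 20.4% lower (median 0). By MTT assay the paper saw no significant difference in proliferation between PC3 and PC3-shp14ARF cells in DMSO. A link between this list and the inhibitors was not tested. The replication genes CDC6 (1.38, adjusted p = 0.000117), MCM5 (1.38, adjusted p = 0.000293), MCM2 (1.31, adjusted p = 0.00019) and RRM2 (1.20, adjusted p = 0.000375) led. With MLN4924 in PC3 cells 8 were higher and 5 lower (median 0.36), against 32.2% and 29.4% of all genes. Those that rose included RRM2 (2.30), a subunit of ribonucleotide reductase, CDC6 (1.96), which loads the replicative helicase, and MYBL2 (1.93), a transcription factor of the cell cycle, while the mitotic kinase PLK1 fell (−2.02, adjusted p = 4.33e-05). Both vs shARF had 4 higher and 9 lower (median −0.56; all genes 28.3% and 32.8%), with PLK1 again lower (−2.89) and BIRC5 (−1.19) and TOP2A (−1.09) lower too.

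The interaction was negative in 12 of the 14 and positive in 0 (median −0.71), where 17.1% of all genes were negative and 11.2% positive (median −0.085). It shares its libraries with shARF vs Ctrl, where all 14 were higher, so these counts are not independent. With median-of-ratios scaling the calls over all genes were 3208 positive and 2798 negative. The list itself was not counted under that scaling. Its negative interactions were led by MCM5 (−1.58, adjusted p = 1.03e-05). In Both vs MLN 4 were higher and 1 lower (median 0.20; all genes 11.8% and 20.6%), and in Both vs Ctrl 8 were higher and 5 lower (median 0.32; all genes 28.5% and 33.2%). For the interaction, MKI67 (−0.053, adjusted p = 0.821) and FOXM1 (−0.16, adjusted p = 0.490) did not pass.

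Genes on either side of the members were read from the annotation, to see whether the changes were shared along the chromosome. FAF1, 478 bases from CDKN2C, fell with the drug in PC3 cells (−1.11, adjusted p = 7.60e-05), where CDKN2C rose. KRI1, 429 bases from CDKN2D, rose there by 0.43 (adjusted p = 0.00321), against 2.04 for CDKN2D, and AP1M2, 3612 bases on the other side, rose from 0.184 ± 0.0788 to 10.0 ± 0.73 TPM. MTAP, 30101 bases from CDKN2A, did not pass the test in shARF vs Ctrl (0.10, adjusted p = 0.118) and fell with the drug in both populations (−0.50 and −0.60). DMRTA1, 437519 bases from CDKN2B, rose with MLN4924 in PC3 (1.497, adjusted p = 5.28e-05), where CDKN2B fell. CREBL2 and APOLD1, beside CDKN1B, were lower in shARF than in Ctrl (−0.29, adjusted p = 0.0205, and −0.51, adjusted p = 0.0296), where CDKN1B was higher. The neighbours of CDKN1A, PANDAR and RAB44, and KCNQ1DN and MIR4421 beside CDKN1C and CDKN2C, were at or near 0, and SLC22A18AS beside CDKN1C was at most 0.391 TPM in any condition.

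Genes with the condition pattern most like a member were found by the root mean square difference between condition means of log2(TPM + 0.1), each centred on its own mean, over 4 conditions and 14663 genes. For CDKN1A these were ACP7 (difference 0.185), HHIP (0.197) and DAW1 (0.213). ACP7 was at 6.93 ± 0.472 TPM in Ctrl, 0.893 ± 0.182 in shARF, 30.2 ± 3.48 in MLN and 15.4 ± 1.29 in Both. For CDKN2A they were LYN (0.0832), TFEB (0.115) and AC007285.1 (0.122), and for CDKN2B AC005256.1 (0.0183), PI4KA (0.0238) and CAPZB (0.0269). The ranking was by means and takes no account of spread. AC005256.1 was at 10.1 ± 0.446 TPM in Ctrl, 8.59 ± 2.31 in shARF, 3.81 ± 0.963 in MLN and 4.32 ± 1.90 in Both. HSH2D (0.0569), C7orf61 (0.099) and CTSV (0.134) came nearest to CDKN2D, and GAS6 (0.0693), A4GALT (0.0774) and NUAK2 (0.0792) to CDKN1C. CTSV, for example, was at 8.32 ± 0.048 TPM in Ctrl, 7.65 ± 0.124 in shARF, 31.7 ± 2.91 in MLN and 12.9 ± 0.632 in Both. CDKN1B and CDKN2C spanned less than 1 on the log2 scale and were not compared in this way.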

How the data were processed

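RNA-seq of 12 libraries, 3 in each of 4 conditions, was used. The authors trimmed adapters, mapped to hg38 and quantified on an Ensembl annotation with CLC Genomics Workbench, and deposited TPM per gene. Depth and strandedness are not given in the sources used here. GEO lists 1 sample per condition. Samples were grouped by their labels, and the 3 columns of each condition by the condition in their names.

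Of 43622 genes, the 19932 whose mean reached 0.1 TPM were kept, and log2(TPM + 0.1) went into limma 3.58.1 (R 4.3.3; lmFit and trended eBayes). P-values were adjusted by Benjamini-Hochberg and called below 0.05. The 5 pairwise comparisons used the libraries of their own groups and the interaction, Both minus shARF less MLN minus Ctrl, all 12. The count test of the study could not be used on TPM. The fits were tested on simulated data.

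The members, tests, markers and 5 gene lists (cyclins and CDKs, ubiquitin ligase parts, transcription regulators, proliferation genes, and genes with names close to the families) were chosen with earlier results of these data known. Of each list, at most 4 genes were named per comparison, those of the largest change that reached a mean of 1 TPM. Others, among them CDK4, CDK6, SKP2, CDK2AP1, MKI67 and FOXM1, were picked with their values in view. CDKN2AIP and CDKN2B-AS1 were also given in comparisons where this rule did not name them. Some genes of the lists and markers are not reported here by name. The nearest gene on each side of a member and, for members spanning at least 1 log2 unit, the 3 most like it were also named.

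Alternatives were median-of-ratios scaling, a pseudocount of 1 or 0.01, eBayes without trend, a minimum mean of 1 TPM or none, 12 libraries in one fit, a replicate block and each library left out in turn. For the family sums they were added after seeing the data. Positions are from GENCODE (GRCh38), another release than the authors' annotation, and promoters from RefSeq (GRCh38.p14), which matched 6 of the 7 members with 9 starts. Motifs were searched on both strands in the 250 bases before each start. A planned comparison of protein sequences was not run.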

Additional observations from a re-analysis of the deposited data

Results flagged for a closer look

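For 5 of the 7 inhibitors the response to MLN4924 differed between the PC3-shp14ARF cells and the PC3 cells, by the interaction in limma over all 12 libraries. Each value is the log2 response in the shRNA cells less that in PC3. It was 2.44 for CDKN1A, whose rise was larger in the shRNA cells on the log2 scale but not in TPM. For CDKN2B, whose fall was smaller, it was 0.35. It was −0.67 for CDKN1B, which rose in PC3 cells and had a log2 fold change of −0.0088 in the shRNA cells, −1.06 for CDKN2C, which rose in PC3 and fell in the shRNA cells, and −1.11 for CDKN2D, whose rise was smaller. Of all genes tested 28.3% had such a difference. Over the alternatives the interaction kept its sign in all of the 5 genes. It stayed past the threshold in CDKN1A, CDKN1B, CDKN2C and CDKN2D, and it was lost under 7 of 19 settings in CDKN2B.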

How the results depend on the processing

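Over the 7 genes and 6 comparisons, 603 values were recomputed under other settings. Direction and side of the threshold were kept in 564, 29 lost a call, 5 gained one and 5 changed sign. The sign changes were those of CDKN1C in MLN vs Ctrl with a replicate block (−0.011, adjusted p = 0.993) and of CDKN1B in Both vs shARF with median-of-ratios scaling (0.087, adjusted p = 0.0781), without shARF library 3 (0.0025) or 5 (0.0045) and without Both library 4 (0.0080), none of them called. With each library left out in turn, CDKN1B in Both vs shARF lay between −0.033 and 0.0080. The calls gained were CDKN2D in shARF vs Ctrl under 3 settings, and CDKN1C in shARF vs Ctrl and the interaction of CDKN2A under 1 each. The calls lost most often were CDKN1B in Both vs MLN and CDKN2A in Both vs shARF, each under 7 of 13 settings (adjusted p 0.00961 to 0.161 and 0.00621 to 0.128), and the interaction of CDKN2B under 7 of 19 (0.00205 to 0.160).

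The numbers in the column names were tried as a replicate block. Deviations from the group means correlated between −0.0457 and 0.0222 for same-numbered libraries (10 pairs) and between −0.0461 and 0.0408 for the others (44 pairs). Same-numbered libraries were thus no more alike than others. The numbers are not described, so whether they mark shared cultures or runs is unknown. With the replicate block the members called in shARF vs Ctrl were 0 in place of 5, where limma called 0 of all genes (7757 at an unadjusted p below 0.05). The added block terms leave a pairwise fit little to estimate the spread from. The log2 fold changes of CDKN1A, CDKN1B, CDKN2A, CDKN2B and CDKN2C were −3.28, 0.44, −1.65, −0.33 and 0.66 with the block. Without it they were −3.20, 0.47, −1.63, −0.28 and 0.67. CDKN2A in MLN vs Ctrl (adjusted p = 0.0762), CDKN2C (0.0537) and CDKN2D (0.0542) in Both vs Ctrl and the interaction of CDKN2B (0.160) also lost their call. Both vs shARF and Both vs MLN share only 1 number and could not be fitted with it. The INK4 sum in Both was 191 TPM with median-of-ratios scaling, in place of 182. CDKN1C has a mean below 1 TPM and is missing from the fit with that filter. The other counts of members called stayed within 1.5 times. Depth is unknown from TPM, so no limit of detection can be given for CDKN1C.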

Other observations

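Genes with names close to the families, but of other function, were read as a last list. Of 10 names 7 were in the table and tested: CDKN3, CDKN2AIP, CDKN2AIPNL, CDKN2B-AS1, CDK2AP1, CDK2AP2 and MTAP. With MLN4924 in PC3 cells 3 were higher and 3 lower (median log2 fold change 0.058), against 32.2% and 29.4% of all genes. In the shRNA cells 2 were higher and 5 lower (median −0.47), against 28.3% and 32.8%. In shARF vs Ctrl 1 was higher and 1 lower (median 0.072), against 21% and 20.4%. Both vs MLN had 0 higher and 2 lower (median 0.0031), against 11.8% and 20.6%. Both vs Ctrl had 1 higher and 3 lower (median −0.083), against 28.5% and 33.2%. The interaction was negative in 2 and positive in 0 (median −0.12), against 17.1% and 11.2%.

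CDKN3, a phosphatase that acts on CDKs, rose with the drug in both populations (1.12, adjusted p = 0.000498, and 1.00, adjusted p = 7.86e-05), from 87.1 ± 10.5 to 190 ± 24.2 TPM in PC3. CDKN2AIP, which encodes a binding partner of ARF, was at 37.8 ± 1.93 TPM in Ctrl, 55.6 ± 0.829 in shARF, 54.4 ± 2.39 in MLN and 40.2 ± 2.58 in Both. It rose with MLN4924 in PC3 (0.52, adjusted p = 0.000462) and fell in the shRNA cells (−0.47, adjusted p = 0.000539). The interaction was −0.99 (adjusted p = 7.91e-06). CDK2AP2 was lower in shARF than in Ctrl (−0.59, adjusted p = 0.00118) and lower in Both than in MLN (−1.01, adjusted p = 0.00254), while CDK2AP1 had 0.065 in shARF vs Ctrl (adjusted p = 0.272).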
